A study of Mus musculus with 24 samples.

Results

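The comparison described here was that of an acute injection of morphine with an injection of PBS in the ventral tegmental area (VTA) of wild-type mice. It used 6 of the 24 mRNA libraries of the series, chosen by their sample labels: VDR+/+ mice 1.0, 1.1 and 1.2, which received morphine, and VDR+/+ mice 1, 2 and 3, which received PBS. All of them carried both copies of Vdr, the vitamin D receptor gene, on a C57BL/6 background. Morphine sulfate was given once, intraperitoneally, at 5 mg/kg. The study placed the tissue collection at 90 min after the injection, although its methods also state that saline-injected mice were euthanized at 60 min, so that injection and time cannot be told apart here. The tissue was a bilateral micropunch of frozen brain, which holds the VTA together with whatever lies around it. The remaining libraries came from the nucleus accumbens of wild-type mice, numbered like these 6, and from both regions of Vdr-/- mice. The question put to the data was which genes differ in the VTA after a first dose of the opioid.

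The VTA holds most of the dopamine neurons of the brain's reward pathway, mixed with GABA and glutamate neurons and with glia. Morphine acts on the mu opioid receptor, a Gi-coupled receptor that in the VTA sits mainly on GABA neurons and on their inputs. Its activation lowers cAMP, opens potassium channels and closes calcium channels, and the GABA neurons that it quiets then release dopamine neurons from inhibition.

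Values are normalized counts, that is, reads per gene divided by a size factor for each library, and they are given in the order of morphine mice 1.0, 1.1 and 1.2 and of PBS mice 1, 2 and 3. Reads on genes ranged from 14357991 to 19362929 in the morphine libraries and from 18241214 to 24639176 in the PBS libraries. No library was a copy of another, since the read counts of mice of the same group differed by a chi-square of 5.11 to 23.7 per degree of freedom, over genes read 20 times or more. Reads of mitochondrial genes took 4.78% to 5.47% of each morphine library and 5.99% to 6.52% of each PBS library. PBS mouse 3 carried the most blood RNA, with 7339 normalized counts of the beta-globin gene Hbb-bs against 1575 and 1296 in PBS mice 1 and 2 and 582 to 826 in the morphine mice. Vdr itself lay between 1.70 and 15.9 normalized counts in the 6 libraries, below the minimum for a test.

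Of 16269 genes tested with limma at a Benjamini-Hochberg adjusted p under 0.05, 2001 differed between morphine and PBS, 12.3% of them. Of these genes 918 were higher with morphine (5.64% of those tested) and 1083 were lower (6.66%), and the median over all genes tested was a log2 fold change of -0.00115. Most differences were modest, with a median size of 0.547 on the log2 scale, while 448 genes differed by more than 1 log2 unit. Of all genes tested, 5049 (31%) had an unadjusted p under 0.05, and in 35.8% the 3 morphine values did not overlap the 3 PBS values. The number called depended on single libraries. Leaving out morphine mouse 1.2 gave 405 calls and leaving out 1.1 gave 3737, while leaving out PBS mouse 1, 2 or 3 gave 419, 638 or 591. The first principal component held 57.65% of the variance and set the morphine mice (-40.2, -19.4 and -39.5) apart from the PBS mice (34.9, 26.7 and 37.6). The second held 16.65% and set morphine mice 1.0 (30.0) and 1.1 (-30.4) apart from each other. By chi-square per degree of freedom, mouse 1.1 differed less from PBS mice 2 and 3 (17.5 and 19.2) than from morphine mouse 1.0 (23.7). For a single gene an exact permutation test over the 20 arrangements of 3 mice against 3 cannot go below a p of 0.1.

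**Figure D1:**
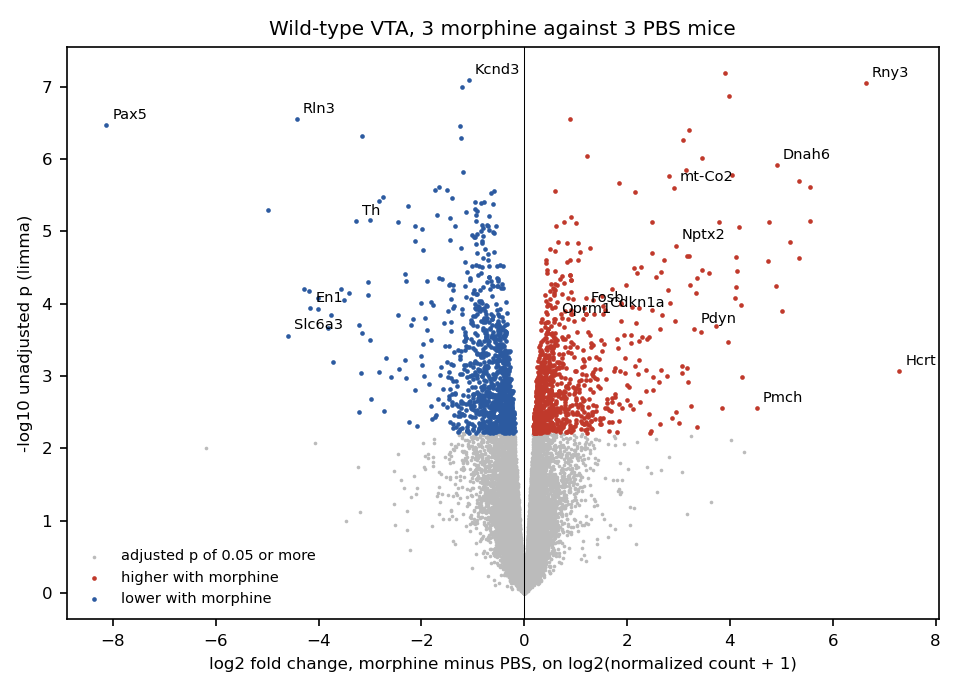
Each point is 1 of the 16269 genes tested in wild-type VTA, with the log2 fold change (morphine minus PBS, 3 mice each) on the x axis and −log10 of the unadjusted limma p on the y axis. Of the 2001 colored genes, 918 lie on the right (higher with morphine) and 1083 on the left, and markers of dopamine neurons such as Slc6a3 and Th are far to the left while the hypothalamic peptide gene Hcrt is far to the right.

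Genes that mark midbrain dopamine neurons were lower with morphine. Slc6a3, the dopamine transporter (chr13:73536747-73578672, + strand, GRCm38), had 537, 2981 and 267 normalized counts with morphine and 21835, 17191 and 16391 with PBS. The groups did not overlap, and mouse 1.1 stood well above the other morphine mice. The log2 fold change was -4.60 ± 0.74 (SE, n = 3 and 3, limma adjusted p = 0.0114). Th, tyrosine hydroxylase, which carries out the rate-limiting step of dopamine synthesis (chr7:142892752-142931128, − strand), had 626, 1243 and 462 against 8115, 6445 and 6206. Again every morphine value lay below every PBS value, with a log2 fold change of -3.27 ± 0.32 (limma adjusted p = 0.00212).

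Of 13 genes of dopamine synthesis, transport and breakdown, 7 were lower and none higher, against 12.3% called over all genes, with a median log2 fold change of -0.53. Slc18a2, the vesicular monoamine transporter, had 994, 1329 and 539 against 8221, 6756 and 6492 (log2 fold change -2.99 ± 0.29, limma adjusted p = 0.00212). Ddc, which makes dopamine from L-DOPA, fell by 2.82 on the log2 scale, and Gch1, which makes the cofactor of tyrosine hydroxylase, fell by 2.12. Of 35 genes of dopamine neuron identity, 24 were lower and 1 was higher, with a median of -1.20. The lower ones included the homeobox genes En1 (-4.17 ± 0.59) and En2 (-2.75 ± 0.24), the nicotinic receptor subunit gene Chrna6 (-3.56 ± 0.46), the neurotensin receptor gene Ntsr1 (-1.20 ± 0.09) and the gamma-synuclein gene Sncg (-1.50 ± 0.13). The higher one was Calb1, calbindin, at 2668, 1957 and 2396 against 1235, 1029 and 811 (1.20 ± 0.16). Calbindin marks a part of the dopamine neurons but is made by many other neurons.

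Among called protein-coding genes with a mean of at least 50 and groups that did not overlap, the 12 largest falls included Slc6a3, Th, En1 and Chrna6. The largest of them was that of Pax5. Pax5, a transcription factor gene of the midbrain, held 2.81, 3.47 and 0 against 627, 682 and 869.6 normalized counts (-8.13 ± 0.52). Aldh1a7 (-4.19), Slc10a4 (-4.01), Cnpy1 (7.50, 34.7 and 5.27 against 201, 192 and 200.1 normalized counts), the nicotinic subunit genes Chrnb3 (-3.81) and Chrna5 (-3.50), Gata3 (-3.77), a transcription factor gene of midbrain GABA neurons, and AI661453 (-3.16) completed the 12. In limma the adjusted p of Pax5 was 0.00063 and that of Chrnb3 0.0104, and by the rule of choice the groups of these genes do not overlap.

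Of the dopamine receptors, Drd2, which dopamine neurons carry as an autoreceptor, had 453, 693 and 624 against 2174, 1810 and 1704 normalized counts (-1.70 ± 0.16, limma adjusted p = 0.00212). Drd1 was higher, at 112, 104 and 96.1 against 74.4, 47.0 and 64.7 (0.76 ± 0.19, limma adjusted p = 0.0401), and this call passed in 1 of the 6 fits that left out a library. Drd5 (0.61 ± 0.25) and Drd3 (0.15 ± 0.67) did not pass and their groups overlapped.

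Genes of the hypothalamus and of ciliated ependyma were among the 12 largest rises by the same rule. Hcrt, the orexin precursor made in the lateral hypothalamus (chr11:100761069-100762931, − strand), had 3199, 898 and 4641 normalized counts with morphine and 1.55, 173 and 6.81 with PBS. The lowest morphine value was in mouse 1.1 and the highest PBS value in mouse 2, and the groups did not overlap (7.29 ± 1.40, limma adjusted p = 0.0196). Pmch, which encodes melanin-concentrating hormone of the same hypothalamic area, had 10135, 2309 and 13408 against 116, 1688 and 131 (4.52 ± 1.06), and Otp, a hypothalamic homeobox gene, rose by 3.36 ± 0.88. Gpr50, a receptor gene expressed along the ventricle, rose by 3.84 ± 0.90. Of the 6 fits that left out a library, Hcrt passed in 3, Pmch and Otp in 2 and Gpr50 in 1. Over the 15 tested markers of hypothalamus and mammillary nuclei the median log2 fold change was 1.58. Of these markers 4 were higher and none was lower, against 12.3% called over all genes. Their summed normalized counts ran from 5136 to 20585 with morphine and from 1343 to 3592 with PBS.

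Genes of motile cilia were the next group. Dnah6, an axonemal dynein heavy chain, had 377, 223 and 150.1 against 8.52, 8.36 and 4.26 normalized counts (4.91 ± 0.37, limma adjusted p = 0.00123). Dnah11 (2.94 ± 0.44), Cdhr3 (2.81 ± 0.22) and Ak7 (2.71 ± 0.31) were also among the 12 largest rises by that rule. The ependymal markers Ccdc153 and Tmem212 were nearly absent with PBS, with 1 read in all 3 libraries together for the first and none for the second. Ccdc153 was higher by a ratio of 244 with a 95% interval from 43.3, and Tmem212 was at least 34.3-fold higher, counting a floor of 3 reads over the PBS group. These intervals and floors cover counting error only. Of 10 tested markers of choroid plexus and ependyma, 4 were higher and none lower, against 12.3% called over all genes, among them the prolactin receptor gene Prlr (0.90 ± 0.11). Other markers of this list were present in every PBS mouse and overlapped between the groups. With the 12 VTA libraries normalized together, Foxj1, a gene of ciliated cells, had 321, 278 and 172 against 228, 245 and 215. Clic6 had 330, 60.3 and 195 against 78.2, 118 and 88.6, and Kl overlapped too. The choroid plexus marker Ttr stayed below the minimum for a test.

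Dopamine markers, hypothalamic markers and some ependymal markers thus moved with the injection in these 6 punches. In bulk tissue fewer cells of a type and less RNA per cell cannot be told apart. The same genes varied widely among the 3 Vdr-/- mice that received PBS, in which no opioid was given. When the 12 VTA libraries were normalized together, Slc6a3 had 9271, 14886 and 2380 normalized counts in Vdr-/- PBS mice 7, 8 and 9, Hcrt had 935, 8.70 and 543, Pax5 had 79.4, 575 and 9.45, and Dnah6 had 11.1, 21.7 and 220.3. The Vdr-/- PBS mouse with the least Slc6a3, mouse 9, also had the least Pax5 and the most Dnah6 of the 3, and mouse 8, with the most Slc6a3, had the least Hcrt. In the Vdr-/- morphine mice 2.0, 2.1 and 2.2, Slc6a3 (4430.1, 2905 and 6799), Hcrt (781, 558 and 63.6) and Pax5 (10.2, 17.2 and 47.7) lay within the range of the Vdr-/- PBS mice, while Dnah6 (239, 293 and 182) lay above it in 2 of the 3. The wild-type comparison was therefore also fitted with the level of dopamine genes as a covariate, an alternative chosen after the data were examined.

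**Figure D2:**
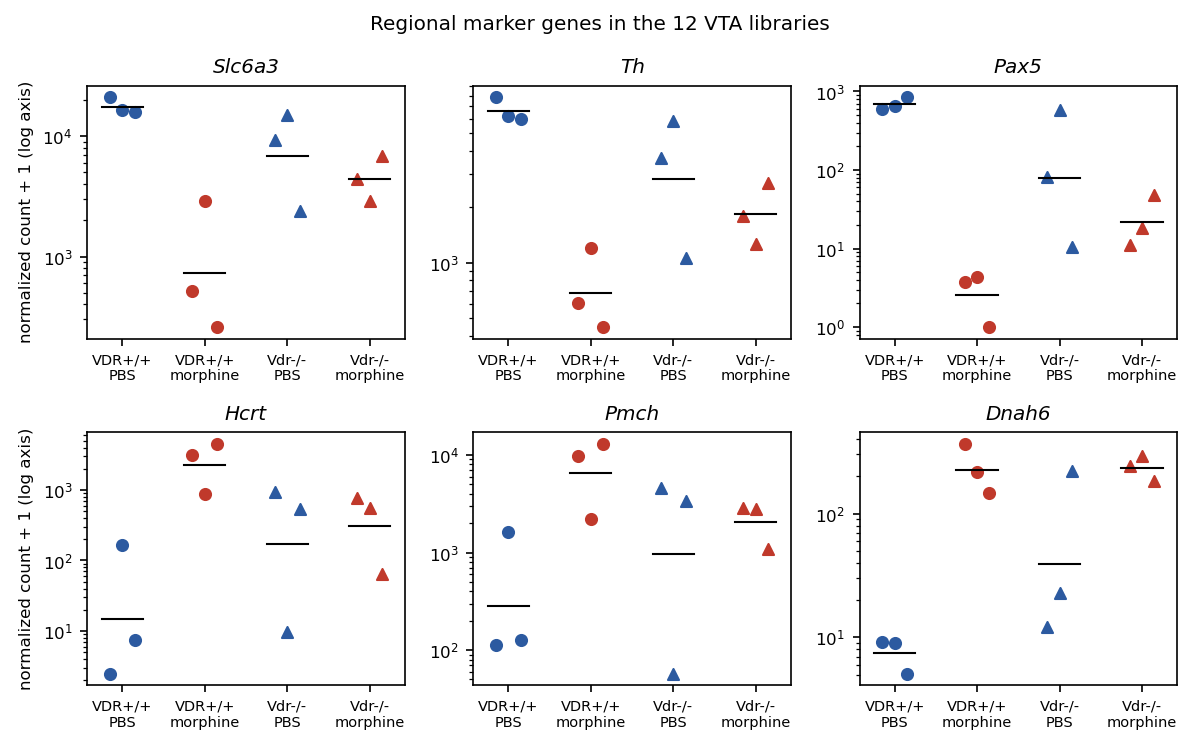
Normalized counts + 1 (log y axis) of 6 regional marker genes in the 12 VTA libraries, by genotype and injection (x axis), with points for single mice and a line at the geometric mean. In wild-type mice the groups separate for each gene, while the 3 Vdr-/- PBS mice spread over much of the same range, from 2380 to 14886 for Slc6a3 and from 8.70 to 935 for Hcrt.

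The dopamine gene level was the mean log2 value of 47 dopamine genes in a library. Th, Slc6a3, En1, Slc18a2, Gch1, Drd2, Nr4a2, Calb1 and the other members of the dopamine synthesis and identity lists are among the 47, so their own fold changes in this fit are set by the adjustment and say nothing of those genes. It was 8.09, 8.65 and 7.87 with morphine and 9.80, 9.65 and 9.64 with PBS in wild-type mice, 8.91, 8.71 and 9.21 with morphine and 9.16, 9.62 and 8.55 with PBS in Vdr-/- mice. With this level in the fit of all 12 VTA libraries, the wild-type comparison called 0 of 16240 genes in limma, with 726 at an unadjusted p under 0.05 (4.47%), while the same 12 libraries without it called 3108. Of the 1990 genes called in the main comparison and tested there, 1804 kept the sign of their change and 329 had an unadjusted p under 0.05. Those genes were called in the same wild-type libraries that enter this fit, so both counts are no separate support for the calls. The level did not overlap between the wild-type groups, and the median SE of the called genes was 0.217 with the covariate and 0.117 without. In wild-type mice the injection and the make-up of the punch cannot be told apart. Some of the genes below, other than those 47, are given with their fold change in both fits. Genes given a single wild-type fold change have that of the fit without the covariate. Called genes named here whose sign turned with it are listed at the end.

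**Figure D3:**
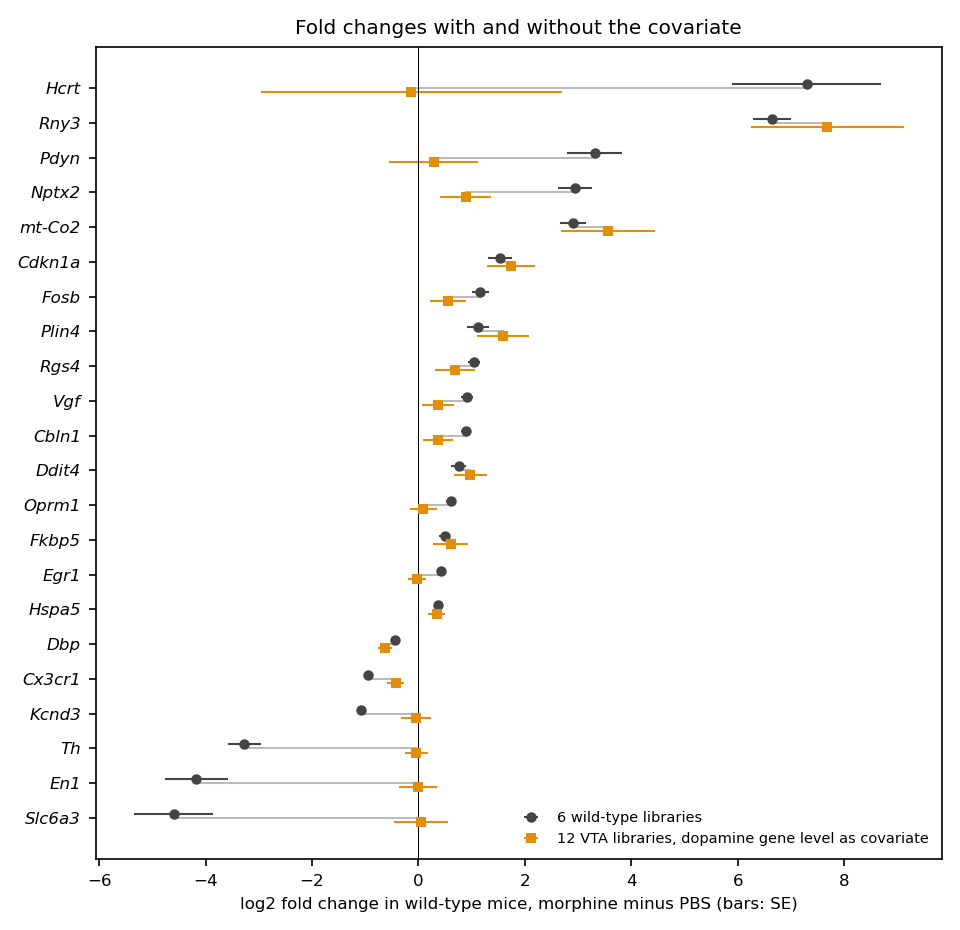
Log2 fold changes (morphine minus PBS, x axis, bars are SE) of named genes in the 6 wild-type libraries (circles) and in the 12 VTA libraries with the dopamine gene level as a covariate (squares). Pdyn moves from 3.31 to 0.29, while Rny3 has 6.64 and 7.68, mt-Co2 2.91 and 3.56 and Cdkn1a 1.53 and 1.73. No gene passes in the fit with the covariate, and Th, En1 and Slc6a3 are part of the covariate, so that their squares near 0 follow from its construction.

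Most microglial and oligodendrocyte markers were lower with morphine, and fewer of those of astrocytes and vessels, against 6.66% lower over all genes. Of 14 microglial markers 13 were lower and none was higher, with a median of -0.89, and their summed normalized counts were 4941 to 5504 against 8330 to 9779. Cx3cr1, the fractalkine receptor gene (chr9:119901616-120069879, − strand), had 525, 581 and 502 against 993, 949 and 1147 (-0.94 ± 0.09, limma adjusted p = 0.00212), and Csf1r, the receptor gene that microglia need to survive, had 1213, 1281 and 1159 against 1896, 1884 and 2082 (-0.68 ± 0.06). The 3 morphine mice lay close together and below every PBS mouse for both genes. With the covariate the median of the microglial list was -0.39.

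Of 14 oligodendrocyte markers 10 were lower, with a median of -0.78. The myelin gene Mbp had 43571, 74771 and 50071 against 92486, 99251 and 89259 normalized counts (-0.78 ± 0.19, limma adjusted p = 0.0377). Mouse 1.1 was the nearest of the morphine mice to the PBS mice. Of 14 astrocyte markers 4 were lower and 5 had a positive fold change, with a median of -0.17, and the water channel gene Aqp4 was the clearest of those named (3282, 3361 and 2823 against 5879, 5851 and 6711, -0.96 ± 0.09, limma adjusted p = 0.00179). Lower members numbered 5 of 14 for endothelial cells, 2 of 10 for mural cells, 3 of 8 for oligodendrocyte precursors, 1 of 15 for meningeal fibroblasts and 2 of 7 for blood, with none higher. Over all genes 6.66% were lower, about the share of the meningeal fibroblast markers. The medians of the 5 lists, in that order, were -0.34, -0.45, -0.42, -1.44 and -1.87. The meningeal gene Igf2 had 906, 573 and 434 against 1520, 895 and 2037 and did not pass (-1.20 ± 0.33, limma adjusted p = 0.0543), and neither did Hbb-bs (-1.87 ± 0.58, limma adjusted p = 0.0722).

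Markers of other neurons gave the following counts, against 12.3% called over all genes. Of 11 markers of midbrain GABA and red nucleus neurons 6 were lower, with a median of -1.15, among them the parvalbumin gene Pvalb at 198, 269.7 and 119.8 against 875, 595 and 803 (limma adjusted p = 0.00712). Of 9 interpeduncular and habenular markers 4 were lower, and of 13 thalamic markers 2 were higher and all 13 had a positive fold change, as had 49.8% of all genes (median of the markers 0.78). Markers of cortical and hippocampal excitatory neurons had a median of 0.04 with 1 of 13 lower, and 3 of 11 markers of medium spiny neurons were higher. Of 6 serotonin neuron markers 1 was lower, of 3 cholinergic markers none passed, and of 4 tested sex-linked genes none passed.

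Of the 8 opioid receptor and opioid peptide genes, 3 were higher with morphine and none was lower, against 12.3% called over all genes. Oprm1, the mu receptor on which morphine acts (chr10:6758506-7038198, + strand), had 301, 278 and 321 normalized counts against 198, 202 and 191. All morphine values lay above all PBS values by a margin larger than the spread within either group, a log2 fold change of 0.60 ± 0.09 or 1.52-fold (limma adjusted p = 0.00895), and the call passed in all 6 fits that left out a library. With the dopamine gene level as a covariate its fold change was 0.09 ± 0.26, and in Vdr-/- mice 0.17 (limma adjusted p = 0.472).

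Pdyn, which encodes the precursor of the dynorphins, the peptides of the kappa receptor, had 717, 198 and 629 normalized counts against 24.8, 57.5 and 60.5. Mouse 1.1 again had the lowest value of the morphine group, while the highest was in mouse 1.0 for Pdyn and in mouse 1.2 for Hcrt. The groups did not overlap (3.31 ± 0.52, limma adjusted p = 0.0106). Pnoc, the nociceptin precursor gene, had 291, 315 and 311 against 159.6, 224 and 193 (0.68 ± 0.13, limma adjusted p = 0.0189). With the covariate Pdyn stood at 0.29 ± 0.84 and Pnoc at -0.40 ± 0.37. Pdyn is also expressed in the hypothalamus, some of whose markers rose in the same libraries. The part of that tissue in the Pdyn values was not tested.

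The other opioid genes did not pass. The receptor genes Oprl1 (0.24 ± 0.09), Oprd1 (0.17 ± 0.17) and Oprk1 (-0.38 ± 0.18) overlapped between the groups, as did the enkephalin precursor gene Penk, with 1262, 794 and 1214 against 759, 945 and 703 normalized counts (0.42 ± 0.18, limma adjusted p = 0.163). Pomc, the beta-endorphin precursor gene, was near the minimum for a test in every library.

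**Figure D4:**
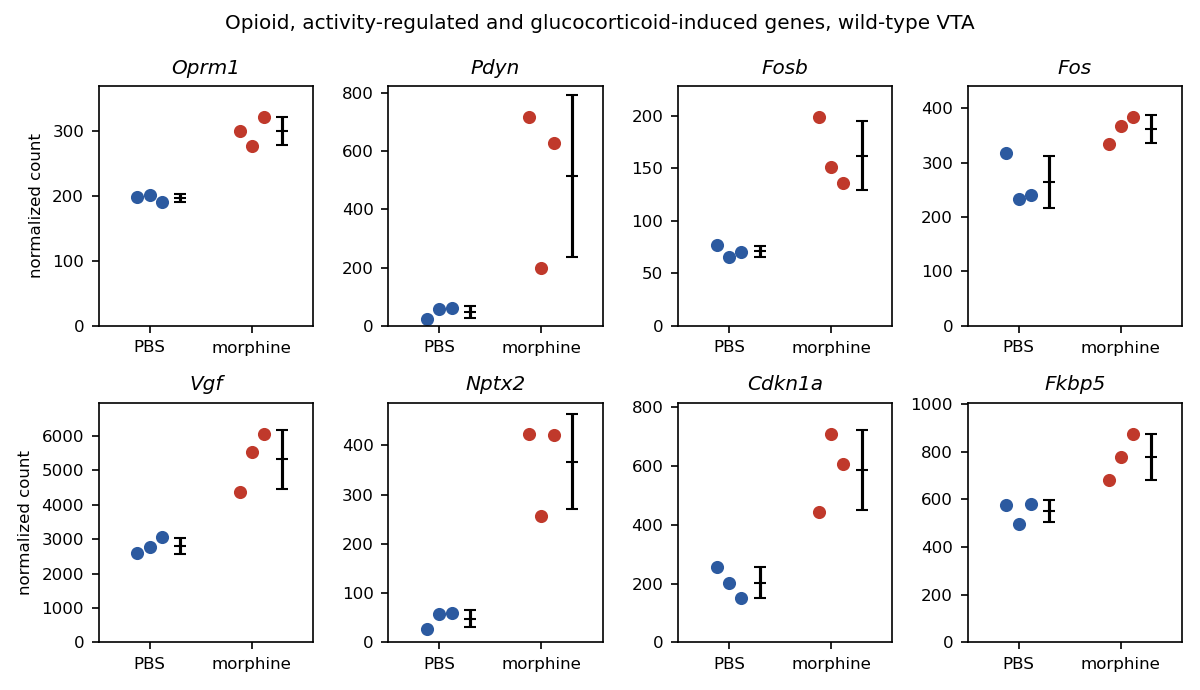
Normalized counts (linear y axis from 0) of 8 opioid, activity-regulated and glucocorticoid-induced genes in wild-type VTA by injection (x axis), with points for single mice and bars for the mean ± SD of 3 mice. Each gene separates the 3 morphine from the 3 PBS mice, with the smallest gap for Fos, where the PBS mouse with 318 lies just below the morphine mouse with 334.

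Of 30 genes that act downstream of opioid receptors, 9 were higher and 1 was lower, against 12.3% called over all genes, with a median of 0.11. Rgs4, which turns Gi signals off, had 2773, 3807 and 3277 against 1692, 1484 and 1550 normalized counts (1.05 ± 0.11, limma adjusted p = 0.00279). Of the opioid-coupled potassium channel subunits, 3 were higher and 1 was lower. Kcnj9 (GIRK3) had 1314, 1691 and 1459 against 863, 895 and 906 (0.74 ± 0.09), and Kcnj3 (GIRK1, 0.50 ± 0.11, limma adjusted p = 0.0268) and Kcnj5 (GIRK4, 0.66 ± 0.17, limma adjusted p = 0.0457) were also higher, while Kcnj6 (GIRK2), a subunit abundant in dopamine neurons, had 578, 638 and 525 against 987, 882 and 933 (-0.69 ± 0.08). With the covariate Rgs4 stood at 0.69 ± 0.38, Kcnj9 at 0.47 ± 0.24 and Kcnj6 at 0.20 ± 0.18. The G protein gamma subunit gene Gng2 rose by 0.48 ± 0.09.

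Of 31 genes of the cAMP pathway, 7 were higher and none lower (median 0.18), against 12.3% called over all genes. They included Crtc1, a CREB coactivator gene (0.32 ± 0.06), the phosphodiesterase genes Pde8b (0.50 ± 0.10) and Pde7b (0.79 ± 0.19), and Adcy3, an adenylyl cyclase gene (0.24 ± 0.06). Their limma adjusted p ran from 0.0215 to 0.036, and each passed in 1 to 3 of the 6 fits that left out a library.

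Of 45 activity-regulated genes tested, 8 were higher and 2 lower, against 12.3% called over all genes, with a median of 0.27. Fos, the immediate early gene most used to mark active neurons, had 334, 368 and 383 against 318, 233 and 240.2 normalized counts. The groups did not overlap but the gap was narrow, and Fos did not pass (0.47 ± 0.13, limma adjusted p = 0.0558). Fosb (chr7:19302696-19310051, − strand), whose long-lived product builds up with repeated drug exposure, had 199, 152 and 136 against 76.7, 65.8 and 70.7 (1.16 ± 0.16 or 2.24-fold, limma adjusted p = 0.00755), and it passed in all 6 fits that left out a library. Vgf, a neuropeptide precursor gene induced by growth factors and activity, had 4375, 5532 and 6067 against 2604, 2771 and 3065 (0.91 ± 0.12). Nptx2, which clusters glutamate receptors at synapses, had 424, 256 and 421 against 27.9, 57.5 and 58.8 (2.94 ± 0.32). The transcription factor gene Egr1 rose by 0.43 ± 0.08 (limma adjusted p = 0.0152).

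The lower members were Arc, an immediate early gene of synapses, at 275, 340.3 and 266 against 429, 403 and 510.1 (-0.61 ± 0.13, limma adjusted p = 0.0248), and Nr4a2, given below. With the covariate the fold changes were 0.56 ± 0.34 for Fosb, 0.36 ± 0.30 for Vgf, 0.89 ± 0.48 for Nptx2, -0.64 ± 0.24 for Arc, -0.03 ± 0.17 for Egr1 and -0.02 ± 0.34 for Fos. In Vdr-/- mice Fosb differed by 1.21 (limma adjusted p = 0.00655) and Fos by 0.87 (limma adjusted p = 0.0202).

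Among the targets of CREB and cAMP, 8 of 36 were higher and 3 were lower, against 12.3% called over all genes, with a median of 0.36. The lower ones were Th, Nr4a2, a nuclear receptor gene that dopamine neurons need (678, 899 and 483 against 1508, 1294 and 1378, -1.06 ± 0.20), and Ppargc1a, a coactivator gene of mitochondrial biogenesis (1257, 1376 and 1201 against 1839, 1828 and 1865, -0.53 ± 0.06). The full cAMP response element, TGACGTCA, which reads the same on both strands, was searched in the 250 bases before the start, with 1 RefSeq promoter per member. It was found in 8 of 30 members (26.7%) and in 4 of 37 activity-regulated genes (10.8%), against 508 of all 32851 promoters (1.55%). The lists name targets of CREB or of activity, so these higher shares are no result about morphine. Of the CREB list, 1 of 7 members called higher (14.3%) and 1 of 3 called lower (33.3%) held it. Of the CREB list members called, Pcsk1, a convertase of neuropeptide precursors (1857, 1279 and 1814 against 1178, 1097 and 1126, 0.52 ± 0.13), and Th held it. These promoters are shown because their genes moved in opposite directions with the same element. The 120 bases before the start are given on the strand of the gene (RefSeq, GRCm38.p6), at chr13:75089737-75089856 (+) for Pcsk1 and chr7:142899996-142900115 (−) for Th, with the element in capitals. It began 78 bases before the start in Pcsk1 and 45 before it in Th. A match is a description and not evidence of binding.
Pcsk1: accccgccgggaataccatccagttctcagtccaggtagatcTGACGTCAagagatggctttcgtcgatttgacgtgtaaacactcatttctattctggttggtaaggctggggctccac
Th: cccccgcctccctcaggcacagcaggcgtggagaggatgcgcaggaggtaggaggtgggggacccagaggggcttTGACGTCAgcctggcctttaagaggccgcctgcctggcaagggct

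Of 34 glucocorticoid-induced genes tested, 5 were higher and none lower, with a median of 0.27. This count is near the 12.3% called over all genes. The list holds genes that the glucocorticoid receptor induces, and opioids are known to raise circulating glucocorticoids in rodents. Cdkn1a, the cell cycle inhibitor p21 (chr17:29090976-29100727, + strand), had 442, 709 and 608 against 256, 203 and 149.9 normalized counts (1.53 ± 0.22 or 2.9-fold, limma adjusted p = 0.00826). Plin4, a lipid droplet coat protein gene, had 687, 921 and 1282 against 473, 458 and 364 (1.12 ± 0.21), and Ddit4, an inhibitor of mTOR, had 746, 1097 and 893 against 589, 536 and 483 (0.75 ± 0.14). None of these groups overlapped, as in 35.8% of all genes.

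Fkbp5, a co-chaperone of the glucocorticoid receptor, had 683, 780 and 876 against 575, 497 and 581 (0.50 ± 0.10, limma adjusted p = 0.0264), and Per1 differed by 0.27 ± 0.06. Sgk1, a kinase gene, overlapped between the groups (0.70 ± 0.32, limma adjusted p = 0.175). With the dopamine gene level as a covariate the fold changes were 1.73 ± 0.45 for Cdkn1a, 1.58 ± 0.49 for Plin4, 0.97 ± 0.31 for Ddit4 and 0.60 ± 0.33 for Fkbp5, with a list median of 0.37, and none passed there. In Vdr-/- mice the same list had a median of -0.17, with none of its genes higher and 4 lower, and Cdkn1a stood at -0.02. With all VTA libraries normalized together, Cdkn1a had 558, 555 and 654 in Vdr-/- PBS mice and 246, 195 and 144 in wild-type PBS mice. It had 454, 623 and 690 in Vdr-/- morphine mice and 426, 684 and 588 in wild-type morphine mice. For Plin4, Ddit4, Fkbp5, Per1 and Sgk1 too, every Vdr-/- PBS value lay above every wild-type PBS value. The difference between the PBS groups was not tested. The difference of the Cdkn1a fold change between the genotypes, 1.56 ± 0.30 on the log2 scale, did not pass (limma adjusted p = 0.283).

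**Figure D5:**
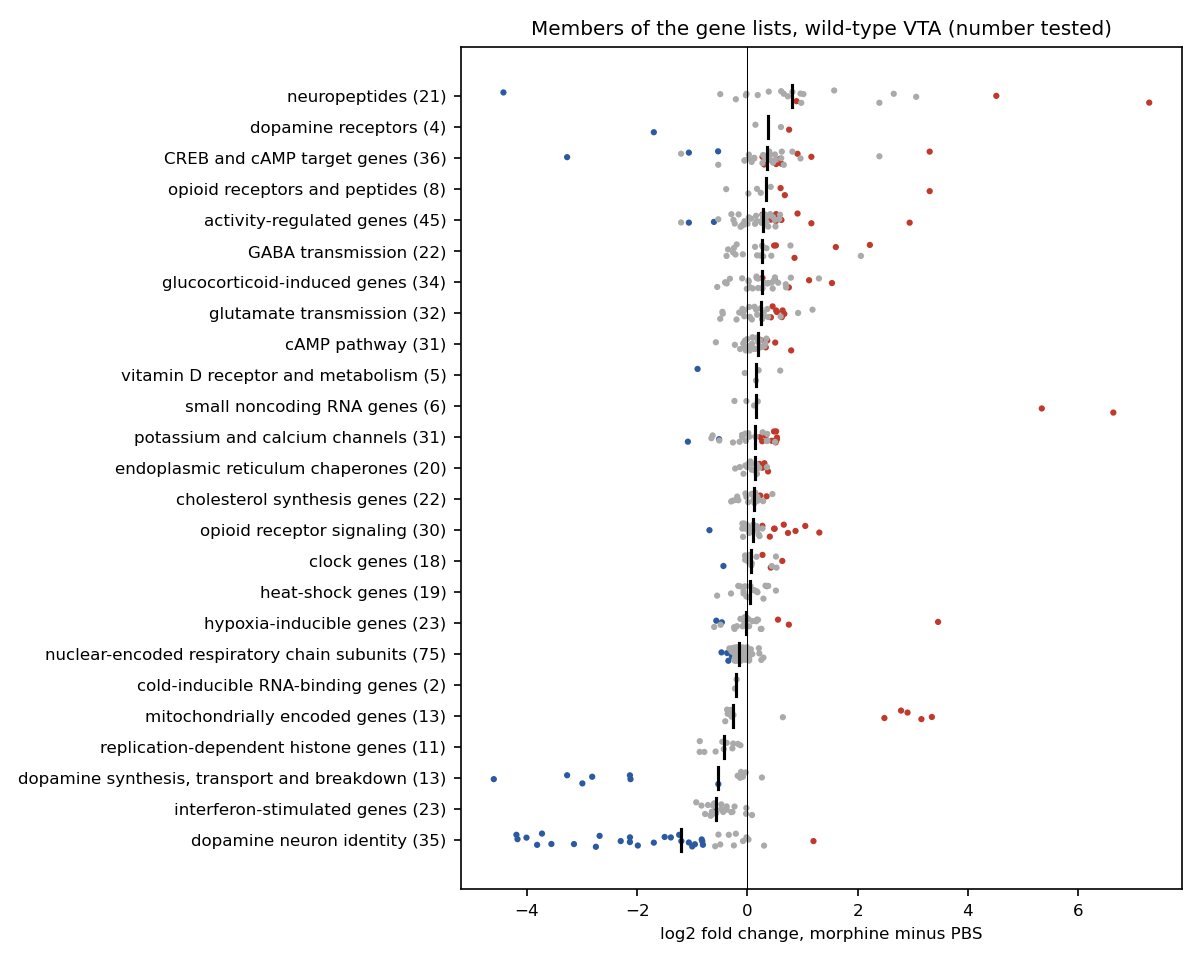
Log2 fold changes (morphine minus PBS, x axis) of the tested members of the 25 gene lists (y axis, number tested in parentheses), colored red where higher and blue where lower at an adjusted p under 0.05, with a black line at each list's median. The lists run from dopamine neuron identity at a median of -1.20 to neuropeptides at 0.82.

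Over the 25 lists 126 of 537 genes passed, 78 of them higher and 48 lower, against 12.3% called over all genes. The number passing became 54 when morphine mouse 1.2 was left out and 218 when 1.1 was. When PBS mouse 1, 2 or 3 was left out it became 57, 68 or 62. Among genes of GABA transmission 5 of 22 were higher and none lower, all of them subunits of the GABA-A receptor. Gabrg3 had 1329, 1023 and 1397 against 642, 773 and 645 normalized counts (0.86 ± 0.13, limma adjusted p = 0.00895). Gabre (742, 235 and 637 against 92.2, 135 and 86.0, 2.22 ± 0.40) and Gabrq (2432, 954 and 2155 against 491, 822 and 439, limma adjusted p = 0.0318) were lowest in mouse 1.1 within the morphine group, as Hcrt was. With the covariate these subunits stood at -0.09 ± 0.60 and -0.27 ± 0.50. The part of the make-up of the punch in their values was not tested.

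Among genes of glutamate transmission 7 of 32 were higher and none lower (median 0.25), against 12.3% called over all genes. Those with the smallest p were the metabotropic receptor genes Grm7 (1380, 1233 and 1390 against 799, 944 and 829, 0.64 ± 0.08) and Grm8 (0.67 ± 0.13), the NMDA receptor subunit gene Grin3a (0.52 ± 0.09) and Grid1, a delta receptor gene (0.43 ± 0.07). Among potassium and calcium channels 10 of 31 were higher and 2 lower. Kcnd3, an A-type potassium channel (chr3:105452330-105674002, + strand), had 2248, 2443 and 2253 against 4938, 4684 and 5054 (-1.08 ± 0.06, limma adjusted p = 0.000409), and Kcnn3, the SK3 channel that paces dopamine neurons, fell by 0.51 ± 0.08. The leak channel gene Kcnk3 (738, 744 and 739 against 544, 528 and 462, 0.54 ± 0.08) and Kcna4 (0.44 ± 0.08) were higher. With the covariate Kcnd3 stood at -0.04 ± 0.28, and the sign of Kcnn3 turned.

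Among neuropeptides, 3 of 21 tested genes were higher and 1 was lower, against 12.3% called over all genes. Besides Hcrt and Pmch, the third was Cbln1, which organizes synapses (1506, 1156 and 1317 against 765, 704 and 665, 0.89 ± 0.10). The lower one was Rln3, the relaxin-3 gene of the brainstem, with 1.87, 2.31 and 1.32 against 55.8, 62.7 and 59.6 (-4.43 ± 0.28).

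The clock, stress and metabolic lists are given here by their counts, against 12.3% called over all genes. Of 18 clock genes, Arntl (0.42 ± 0.08), Rorb (0.63 ± 0.11) and Per1 were higher and Dbp, a clock output gene, was lower at 598, 581 and 586 against 757, 847 and 785 normalized counts (-0.43 ± 0.06). With the covariate Dbp stood at -0.63 ± 0.14, and the sign of Rorb turned. Of 19 heat-shock genes only Hsph1 passed (0.36 ± 0.07), while 4 of 20 chaperone genes of the endoplasmic reticulum were higher, among them Hspa5, the BiP chaperone (5563, 5000 and 5178 against 4514, 3971 and 3683, 0.37 ± 0.08), and Pdia6 (0.31 ± 0.07). The cold-inducible genes Cirbp (-0.23 ± 0.08) and Rbm3 (-0.19 ± 0.08) did not pass.

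Of 23 hypoxia-inducible genes 3 were higher and 2 lower, with Car9, carbonic anhydrase 9, at 30.9, 25.5 and 14.5 against 0.775, 1.05 and 1.70, and Ndrg1 at -0.46 ± 0.10. Of 23 interferon-stimulated genes 22 had a negative fold change (median -0.56), as had 50.2% of all genes, and Xaf1 alone passed (-0.60 ± 0.15, limma adjusted p = 0.0385). Of 22 cholesterol synthesis genes 2 were higher, Msmo1 (0.23 ± 0.05) and Nsdhl (0.35 ± 0.08). Of 75 nuclear-encoded subunits of the respiratory chain 7 were lower and none higher (median -0.16), with Cox4i1 at -0.37 ± 0.07 and Cox8a at -0.34 ± 0.07. None of 11 replication-dependent histone genes passed. Of 5 tested genes of vitamin D reception and metabolism 1 was lower, the sterol hydroxylase gene Cyp27a1 (156, 237 and 149 against 314, 335 and 346, -0.90 ± 0.17).

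Some small noncoding RNAs and mitochondrial genes were near 0 or low in every PBS mouse and high in every morphine mouse. Of 6 small noncoding RNA genes tested 2 were higher and none was lower, against 12.3% called over all genes. Rny3, a Y RNA that binds the Ro60 protein, had 160.2, 103 and 104 normalized counts with morphine and 0.775, 0 and 0 with PBS. The 3 PBS libraries held 1 read together against 339 in the morphine libraries, a ratio of 431 with a 95% interval from 76.9. Rny1 had 118, 88.0 and 77.7 against 0, 1.05 and 5.11 (5.34 ± 0.61, limma adjusted p = 0.00372). Both are short transcripts of RNA polymerase III, given here whole (GENCODE M21, GRCm38, chr6:47788069-47788180, − strand for Rny1 and chr6:47781624-47781725, + strand for Rny3) because their length, 112 and 102 bases, is well below that of mRNA.
Rny1: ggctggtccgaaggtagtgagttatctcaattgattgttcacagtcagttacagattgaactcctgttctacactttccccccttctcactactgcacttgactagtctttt
Rny3: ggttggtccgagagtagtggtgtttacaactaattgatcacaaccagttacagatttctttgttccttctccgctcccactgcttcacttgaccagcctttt

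Of the 13 mitochondrially encoded genes 5 were higher and none lower, against 12.3% called over all genes, although the median of the list was -0.25. The 5 were mt-Co2 (214, 253 and 136 against 24.8, 21.9 and 29.0, 2.91 ± 0.24), mt-Atp6 (3.16 ± 0.35), mt-Co3 (2.49 ± 0.28), mt-Nd4l (2.79 ± 0.36) and mt-Atp8 (3.35 ± 0.44). The most abundant of the genome, mt-Co1, had 237593 to 303542 normalized counts with morphine and 341272 to 374930 with PBS and did not pass (-0.40 ± 0.17, limma adjusted p = 0.145). Nuclear pseudogene copies rose alongside: Gm10925 had 846, 969 and 544 against 51.9, 46.0 and 52.8 (3.90 ± 0.20) and Gm28439 had 471, 582 and 312 against 27.1, 24.0 and 30.7 (3.97 ± 0.23). Over stretches of 50 bases Gm10925 was wholly contained in mt-Atp6 (100% shared), and 99.5% of mt-Co2 and 99.9% of mt-Co3 were shared with nuclear copies, so that the counts of these genes depend on how reads were split and are uncertain. No stretch of mt-Co1, mt-Nd4l or mt-Atp8 was shared with the copies examined. Those copies each matched mt-Atp6, mt-Co2, mt-Co3, mt-Nd3 or mt-Nd4. The comparison could therefore not show copies of mt-Co1, mt-Nd4l or mt-Atp8, whose counts may also depend on how reads were split.

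The Y RNAs and mitochondrial copies were also high with morphine in another region and in the other genotype. In the nucleus accumbens libraries of the wild-type mice, normalized with the VTA libraries, Rny3 had 41.1 or more in each morphine mouse and 2.97 or less in each PBS mouse, and Gm10925 had 1551, 737 and 698 against 55.6, 59.3 and 47.3. In Vdr-/- VTA, Rny3 differed by 6.89 (limma adjusted p = 0.0012) and mt-Co2 by 3.15 (limma adjusted p = 0.00451), with 39.8, 326 and 308 of Rny3 in morphine mice and 0, 1.45 and 0 in PBS mice. PBS mouse 3 shared its sequencing index with morphine mouse 1.0, so that these libraries were not pooled together. PBS mouse 2 shared its index with the accumbens library of morphine mouse 1.0, and morphine mouse 1.1 with Vdr-/- PBS mouse 8. Vdr-/- PBS mice 7 and 9 shared theirs with the accumbens libraries of morphine mice 1.1 and 1.2. Each of these pairs joined a PBS with a morphine library. The labels do not give the pools, so pool and injection cannot be told apart for any gene called here. The part of sample handling in these values was not tested.

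The response of each gene was set against that in the 6 wild-type nucleus accumbens libraries, with the mouse number as a block. The labels give both regions the same numbers but do not say that a number is 1 animal. Of 16147 genes, 239 differed between the regions in limma (1.48%), and 395 without the block. Of the 239, 113 had the more positive fold change in the VTA and 126 the more negative. Leaving out morphine number 1.0, 1.1 or 1.2 from both regions gave 103, 146 or 5 such genes, and leaving out PBS number 1 or 3 gave 19 or 109. Slc6a3 differed by -4.20, but it was low in every accumbens library (11.1 to 19.6 normalized counts) and passed the minimum through the VTA, so that this difference rests on its VTA values. Pdyn differed by 3.53, Nptx2 by 2.78, Rgs4 by 1.68, Egr1 by 0.87 and Drd1 by 1.44. For Rgs4 and Drd1 every accumbens morphine value lay below every accumbens PBS value, so their differences rest in part on that region. Pdyn in the accumbens, where medium spiny neurons make it, had 3090, 1851 and 2191 with morphine and 2207, 4055 and 2160 with PBS, and the groups overlapped.

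In Vdr-/- VTA, with 3 mice against 3, 1322 of 16240 genes differed between morphine and PBS in limma (8.14%). Of these, 510 also differed in wild-type mice, all of them in the same direction, which is 25.5% of the wild-type calls and 38.6% of the Vdr-/- calls. No gene was called in opposite directions. The difference of the responses between the genotypes was called for 0 of 16240 genes in limma, with 1739 at an unadjusted p under 0.05, and for 0 in edgeR, with 1838, but 51 were called in limma when Vdr-/- PBS mouse 8 was left out. Genes called in both included Fosb, Rny3, mt-Co2, Calb1 (0.84 in Vdr-/-), Pvalb (-1.18), Dbp (-0.59), Hspa5 (0.61) and Cx3cr1 (-0.50). In contrast Th stood at -0.63 (limma adjusted p = 0.468), Slc6a3 at -0.64 and Hcrt at 0.84 in Vdr-/- mice, none of which passed.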

How the data were processed

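The authors took bilateral punches, prepared libraries with a directional mRNA kit and sequenced them. Reads were handled with CASAVA 1.8 and Trimmomatic 0.36 and mapped with STAR 2.4.2a (submitters' processing notes), then counted per gene. The strand setting of the counting is not given in the sources used here, so overlapping and antisense genes are uncertain. The unit of the deposited files is a signal, normalized counts per gene, with 2 groups in a table. Dividing by what 1 read was worth made 100% of each library's values whole (within 0.01), and these reads were recovered. PBS mouse 3 came from another table, and the 6 libraries were normalized together with size factors. The test was limma 3.58.1 on log2(value + 1), for genes with a mean of at least 10 (trend, two-sided, Benjamini-Hochberg, threshold 0.05), so folds of low genes are understated. edgeR 4.0.16 on the recovered reads called 1971 genes. The region difference used the mouse number as a block. The genotype difference used all 12 VTA libraries. Samples were grouped by their labels, which do not say that mice were handled separately, so p-values measure the spread between these samples. Scripts were tested on simulated data. R 4.3.3, DESeq2 1.42.0 and Python 3.11.15 were used. Gene positions come from GENCODE M21 (GRCm38), which holds 29371 of 29435 identifiers.

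The members and lists were chosen with earlier results of these data known. Named were the 12 protein-coding genes with the largest rise and the 12 with the largest fall (mean at least 50, called, groups without overlap), up to 4 members of each list with the smallest p, Fos, Oprm1, Th, Slc6a3, Vdr, Fkbp5 and Sgk1, and abundant markers. Penk, Oprk1, Oprd1, Pomc, Arc, Nr4a2, Pcsk1, Calb1, Ccdc153, Tmem212, Gm10925, Gm28439, Car9, mt-Co1, mt-Co3, Kcnj3 and Kcnj5 were named after their values were seen where that rule did not take them. Alternatives were other tools, normalizations, filters and pseudocounts, all 12 VTA libraries, the 5 deposited together, and leaving out each library. Some genes that this rule takes are not reported here.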

Additional observations from a re-analysis of the deposited data

Results flagged for a closer look

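The morphine response differed between the VTA and the nucleus accumbens libraries of wild-type mice, with the shared mouse number as a block, by the test of the difference itself, for 239 genes in limma. Of the 32 genes named here that passed, 26 also passed without the block. The values below are the log2 fold change (morphine minus PBS) in the VTA minus that in the accumbens, for the genes named here, and all of them passed at an adjusted p under 0.05.

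Genes that mark dopamine neurons or their neighbors in the midbrain had a more negative fold change in the VTA, with -9.43 for Pax5, -4.65 for Cnpy1, -4.53 for Rln3, -4.50 for Slc18a2, -4.42 for Aldh1a7 and -4.20 for Slc6a3. The difference was -4.13 for Slc10a4, -3.80 for En1, -3.76 for Chrnb3, -3.43 for Sncg, -3.09 for Chrna6, -3.07 for Ddc and -3.01 for Th. It was -2.90 for Gch1, -2.59 for AI661453, -2.36 for Chrna5, -1.76 for Kcnd3 and -1.37 for Ntsr1. The glial, meningeal and blood genes Aqp4 (-1.46), Igf2 (-1.80) and Hbb-bs (-1.32) also had the more negative fold change in the VTA. Pax5, Cnpy1, Rln3, Aldh1a7, Slc6a3, En1, Chrnb3, Chrna6, Chrna5, AI661453 and Gch1, 11 of the 32, had at most 20.6 normalized counts in every accumbens library, a value reached by Gch1. They passed the minimum through the VTA, so that their differences rest on the VTA values and are no separate result.

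Genes with the more positive fold change in the VTA included Pdyn at 3.53, Nptx2 at 2.78, Rgs4 at 1.68, Calb1 at 1.65, Drd1 at 1.44 and Penk at 1.19. The difference was 1.005 for Kcna4, 0.89 for Kcnj9, 0.87 for Egr1, 0.64 for Pde8b and 0.51 for Grid1. Some of these differences rest in part on lower accumbens values with morphine. In that region Penk had 10282, 8025 and 8859 with morphine and 15099, 18312 and 12514 with PBS, and it did not pass in the VTA. Drd1 had 2934, 2052 and 2246 against 3960, 3958 and 3446 there, and Rgs4 had 3599, 3638 and 3565 against 6207, 4645 and 5845. Pdyn and Nptx2 overlapped between the accumbens groups. The make-up of the VTA punches moved with the injection, as given above. Its part in these differences was not tested.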

How the results depend on the processing

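Genes with a mean under 10 were not tested, and the precision of the rest was set by 3 mice in each group. Against 2001 calls, edgeR made 1971 and DESeq2 2416, and limma made 1978 with TMM, 1923 with quantile normalization, 2017 with a pseudocount of 5, 1759 with a mean of at least 50 and 1903 with no filter. Without the trend limma called 796, with all 12 VTA libraries 3108 and with the 5 libraries deposited together 591, of which PBS mouse 3 is the one not included. Leaving out each morphine mouse gave 405 to 3737 (without 1.2 and 1.1), and leaving out each PBS mouse 419 to 638. On the 25 lists, with 126 calls, limma without the trend gave 57, the 5 deposited libraries 62 and leaving out each morphine mouse 54 to 218 and each PBS mouse 57 to 68. The cause was not tested.

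With the dopamine gene level as a covariate, chosen after seeing the data, 0 genes were called over all and 0 in the lists. The sign turned for Hcrt (-0.14), Pmch (-2.14), Otp (-0.98), Slc6a3 (0.0518), Gata3 (0.15), Pnoc (-0.40), Kcnj6 (0.20), Egr1 (-0.0275), Slc18a2 (0.0318), Gch1 (0.21), Drd2 (0.18), Gabre (-0.0942), Gabrq (-0.27), Kcnn3 (0.16), Rorb (-0.0169), Prlr (-0.085) and Nr4a2 (0.17). Slc6a3, Slc18a2, Gch1, Drd2 and Nr4a2 are among the 47 genes of the covariate, so their turn follows from its construction. No other alternative turned the sign of a called gene named here. Of the genes named, 16 lost their call without morphine mouse 1.0, 0 without 1.1 and 38 without 1.2, and 36, 25 and 37 lost it without PBS mouse 1, 2 and 3.

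No paired analysis was possible because the wild-type morphine and PBS mice share no numbers. In the region difference the mouse number was the block. Deviations of same-numbered VTA and accumbens libraries correlated at -0.0541, -0.0721 and 0.0913 (morphine) and 0.132, 0.0898 and 0.165 (PBS) over 16147 genes. Only 2 of 6 were over 0.1, and 4 of 6 VTA libraries correlated best with their own number, so the numbers are not shown to pair the samples. Without the replicate block 395 genes were called in place of 239, and edgeR with it called 206. Leaving out each morphine mouse gave 5 to 146 for the region difference (103 without 1.0) and each PBS mouse 19 to 351, and it gave 0 to 51 for the genotype difference, where 51 came without Vdr-/- PBS mouse 8.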
